A study of Homo sapiens with 4 samples.

Results

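The genes described here encode the subunits of the nuclear RNA polymerases and the general transcription factors that bring them to promoters. They were taken by gene symbol: POLR1, POLR2 and POLR3 genes, GTF2 and GTF3 genes, TAF genes, TBP and TBPL1, without pseudogenes. The deposited table held 86 matching entries, of which 7 were annotated as pseudogenes and left out. The remaining 79 of 13957 genes, with 78 distinct symbols, were all protein coding. MDA-MB-231 Fluc cells, a triple-negative breast cancer line that carries firefly luciferase, had been exposed for 2 h to 50 μM cordycepin, an adenosine analogue, or to the vehicle DMSO. There were 2 samples of each, all from this 1 cell line, and nothing in the labels says that they were separate cultures. Total RNA was depleted of ribosomal RNA and sequenced as 75 bp paired-end reads.

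The table gives 1 level per gene, log2 CPM, that is log2 of the counts of a gene scaled to a fixed total per library, read here as a mean over the 4 libraries. Its other measurements are the authors' own comparison of cordycepin with DMSO, which was not used here. What follows is therefore a description of how much of each transcript the cells held with both conditions pooled. It cannot show an effect of cordycepin, and no SD, test or library depth can be given. To compare genes of different length, each level was divided by the length of the gene's main transcript in GENCODE, giving RPKM, the same scaled count per kilobase of transcript. Over all genes of the table the median was 8.23 RPKM, with quartiles at 2.89 and 23.5.

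Eukaryotic nuclei divide transcription among RNA polymerase I, which makes the large ribosomal RNA precursor, polymerase II, which makes messenger RNA, and polymerase III, which makes transfer RNA, 5S ribosomal RNA and other short RNAs. The enzymes share a core and several small subunits. Each is placed on its promoters by its own factors, SL1 for polymerase I, TFIID and the other TFII factors for polymerase II, and TFIIIA, TFIIIB and TFIIIC for polymerase III, and the TATA-binding protein TBP takes part in all of these systems.

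The kinship of the enzymes can be read from the largest subunit of each, which carries the catalytic aspartates. The same stretch of 7 residues around these aspartates was found once in each of the 3 proteins. Its coding sequence is shown because all 3 proteins hold the stretch, which was not looked for in other proteins. Capitals mark the 21 bases that encode the stretch (GRCh38, coding exons).
POLR1A, chr2:86070096-86070140, minus strand: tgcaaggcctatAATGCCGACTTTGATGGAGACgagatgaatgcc
POLR2A, chr17:7499285-7499329, plus strand: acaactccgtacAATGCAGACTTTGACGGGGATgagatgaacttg
POLR3A, chr10:78013701-78013745, minus strand: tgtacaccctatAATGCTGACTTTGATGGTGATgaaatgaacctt

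The capitals of POLR1A and POLR2A differed at 4 of 21 bases, and those of POLR3A differed from either at 3. Over the whole proteins identity was far lower. POLR2A and POLR3A shared 516 residues, 37.1% of the shorter protein, and POLR1A and POLR2A shared 27.6% of the shorter. POLR2A alone carries the C-terminal heptad repeats, the platform for phosphorylation during the transcription cycle. It held 21 exact copies of the consensus heptad, 15 of them in 1 run from residue 1636 to 1740 of 1970, and 0 other protein-coding genes held a copy in their main protein. The first 6 heptads of that run are shown, alternating between capitals and lower case.
POLR2A, chr17:7513170-7513295, plus strand: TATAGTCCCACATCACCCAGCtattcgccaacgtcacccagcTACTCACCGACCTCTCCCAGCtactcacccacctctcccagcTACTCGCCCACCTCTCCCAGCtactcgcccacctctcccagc

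Most of the machinery was expressed above the middle of the genes listed, of which the lowest was at 0.56 log2 CPM. The median member stood at 11.4 RPKM against 8.23 for all genes and 8.94 for protein-coding genes. Of the 79 members, 55 (69.6%) lay above the all-gene median, 26 lay above the upper quartile and 5 below the lower. Without length scaling the median was 5.34 log2 CPM against 4.58, and 57 members lay above. The range ran from TAF1L at 0.620 RPKM, a retroposed copy of TAF1, to POLR2L at 209 RPKM, a small subunit common to all 3 polymerases. The choice of scale matters across genes of different length. Over the 79 members Pearson's r with log2 length was 0.21 for log2 CPM and -0.48 for the level per length, where length enters both measures; these describe genes that share the same libraries.

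**Figure D1:**
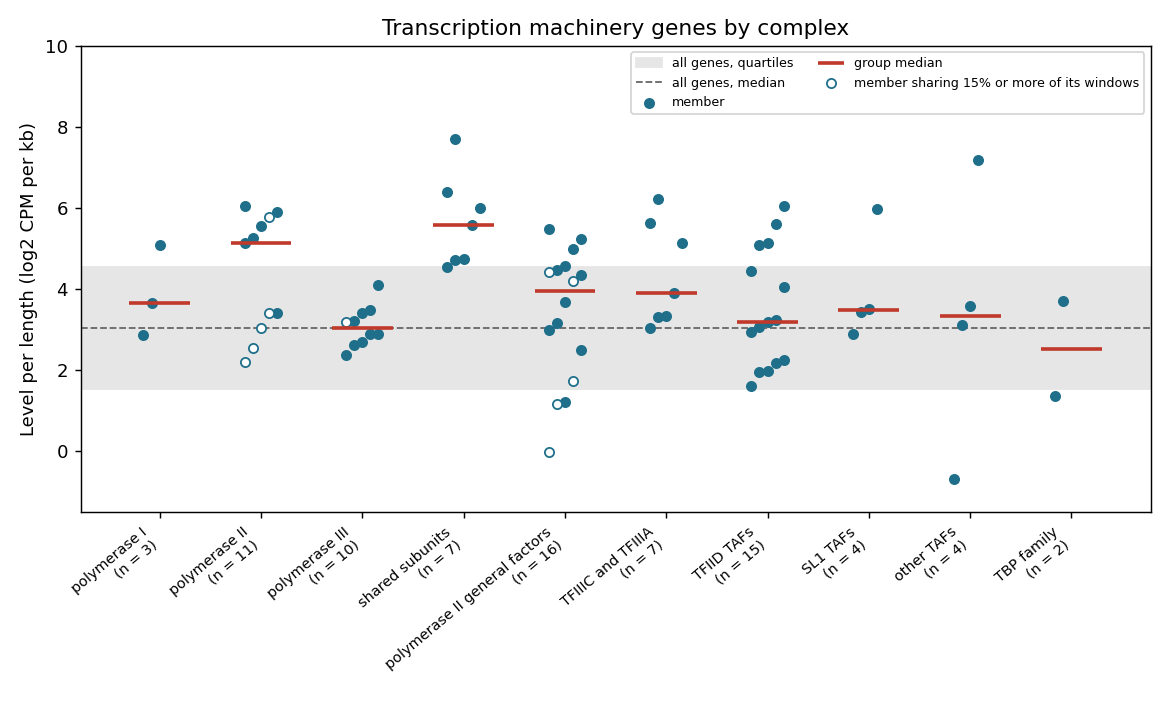
Level per length (log2 CPM per kilobase, y axis) of the 79 members by complex (x axis). Each point is 1 gene, open points share at least 15% of their windows with another gene, red bars are group medians, and the dashed line and grey band are the median and the range between the quartiles of all genes. The 7 shared subunits all lie above the all-gene median, and the 10 polymerase III subunits lie close around it.

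The polymerases stood in the order shared subunits, II, I and III. The 7 subunits used by more than 1 polymerase had a median of 48.0 RPKM, 5.84 times the all-gene median, and all 7 were above it. The 11 polymerase II genes had a median of 35.4 RPKM, 4.30 times, with 8 above. The 3 polymerase I genes had a median of 12.7 RPKM, 1.54 times, and the 10 polymerase III genes 8.28 RPKM, 1.01 times, with 5 above. These sets do not hold the same positions. The polymerase II set also holds POLR2M, which binds the enzyme, and POLR2J2 and POLR2J3, copies of POLR2J. POLR2M and both POLR2J3 entries were its members not above the all-gene median. The assembly platform genes POLR2C and POLR2J count with polymerase II. POLR1C and POLR1D, the platform genes of polymerases I and III, count with the shared subunits. Without length scaling polymerase I moved to the front, at 1.40 log2 units above the all-gene median, against 1.10 for polymerase II, 1.01 for the shared subunits and 0.21 for polymerase III. The order of the first 3 thus rests on the length, and polymerase III was the lowest either way.

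Among the largest subunits, POLR2A was at 38.1 RPKM, POLR1A at 12.7 and POLR3A at 6.12. POLR2A was 3.00 times POLR1A and 6.23 times POLR3A, or 2.46 and 6.33 times with the gene length the authors list. Of the second largest subunits, which form the other side of the active centre, POLR2B was at 59.6 RPKM, POLR1B at 7.29 and POLR3B at 6.53. POLR2B was 8.18 times POLR1B and 9.14 times POLR3B, while POLR1B and POLR3B differed by 1.12 times. In both positions polymerase II was the highest on every length used and in CPM.

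The cleavage subunits gave a less even picture. POLR2I, which aids RNA cleavage, was at 46.9 RPKM and POLR3K, which does so in polymerase III, at 17.1, but in CPM the order turned, with a difference of -0.18 log2 units for POLR2I less POLR3K. The symbols searched miss 3 polymerase I subunits that the table lists under older names, TWISTNB (POLR1F) at 14.1 RPKM, CD3EAP (POLR1G) at 6.85 and ZNRD1 (POLR1H) at 12.1. POLR1E, part of a TFIIF-like dimer with POLR1G, was the highest polymerase I gene per length at 34.1 RPKM. With the 3 added the polymerase I median lay 0.59 log2 units above that of all genes, against 0.62 without.

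**Figure D2:**
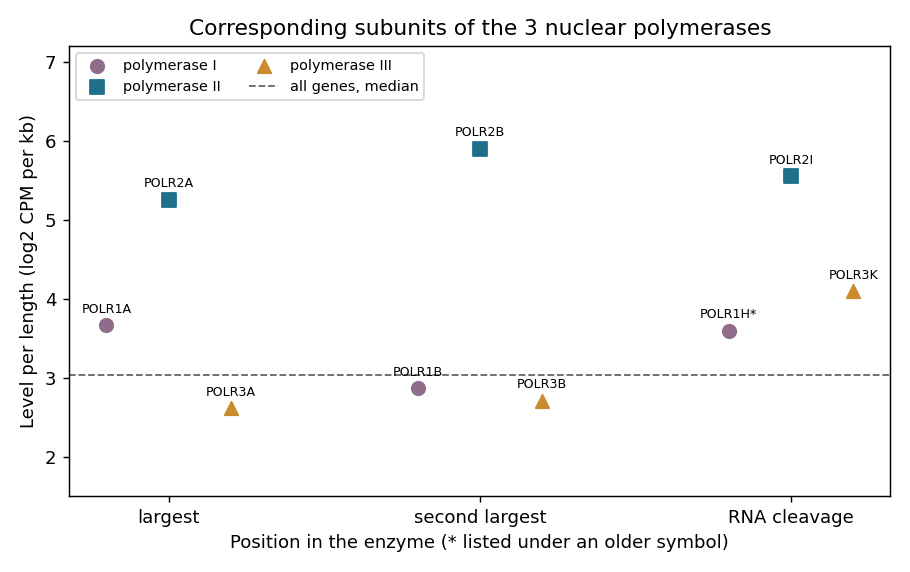
Level per length (log2 CPM per kilobase, y axis) of subunits in the same position of polymerases I, II and III (x axis); each point is 1 gene and the dashed line is the all-gene median. Polymerase II is the highest per length in the 3 positions plotted, from POLR2A at 38.1 RPKM to POLR2B at 59.6, though in CPM POLR3K is above POLR2I. Positions not plotted differ. With the main transcript POLR2C (35.4 RPKM) is above POLR1C (26.5) and POLR2G (66.4) above POLR1F (14.1), but POLR1D (64.1) is above POLR2J (54.6). In CPM POLR2G less POLR1F is -0.06 log2 units and POLR1D less POLR2J is -0.20. With the authors' length POLR1D less POLR2J is -3.25, so POLR1D leads with the main transcript only among these.

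Of the subunits common to all 3 enzymes, POLR2L was at 209 RPKM, POLR2E at 84.3, POLR2K at 48.0, POLR2H at 26.7 and POLR2F at 23.4. These are small proteins of the enzyme core and its surface. The 2 shared by polymerases I and III, POLR1C and POLR1D, form their assembly platform and were at 26.5 and 64.1 RPKM. POLR1D depends most on the length: its main transcript has 693 bases, the table lists 11210, and with the latter its level per length was 1.99 in place of 6.002 on the log2 scale. Among the other polymerase II subunits, POLR2C of the assembly platform was at 35.4 RPKM while of the stalk subunits POLR2G was at 66.4 and POLR2D at 10.7. POLR2G was the highest polymerase II gene with the main transcript only: with the longest transcript it was at 5.08 on the log2 scale against 5.78 for POLR2B. In CPM POLR2G and POLR2D were nearly level, at 52.5 and 53.7. The lowest with the main transcript was POLR2M at 4.61, a polymerase II-binding protein also called GDOWN1.

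Polymerase III subunits lay within a 3.28-fold range, from POLR3D at 5.22 RPKM to POLR3K at 17.1. POLR3D and POLR3E (9.27) form a TFIIF-like dimer, and POLR3C (10.7) and POLR3F (7.45) form a trimer with either POLR3G or POLR3GL. These alternatives were at 7.44 and 9.20 RPKM. Their order turned with the authors' length and in CPM, where POLR3G was 1.18 log2 units higher, so neither can be called the higher. CRCP, a stalk subunit outside the symbols searched, was at 17.8 RPKM.

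**Figure D3:**
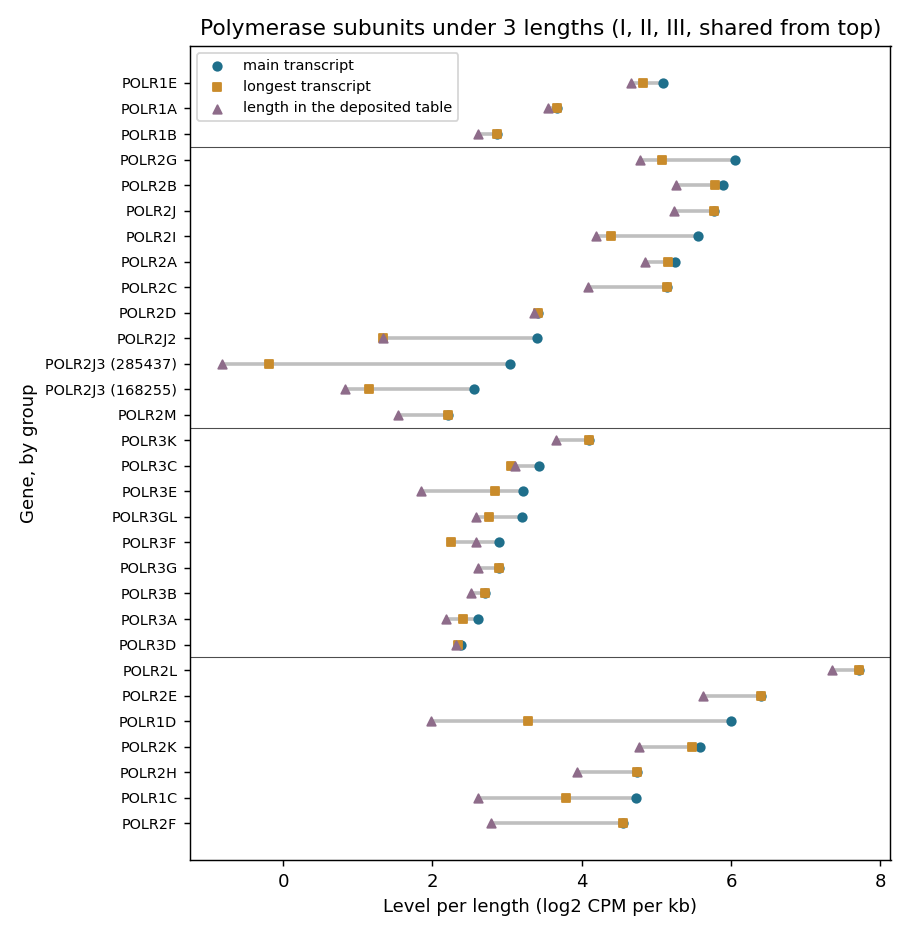
Level per length (log2 CPM per kilobase, x axis) of polymerase subunits (y axis) with 3 different lengths: the main transcript, the longest transcript and the length listed in the deposited table. Grey lines join the values of 1 gene; POLR1D moves from 6.002 to 1.99, and POLR2A from 5.25 to 4.85.

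The general factors of polymerase II, grouped here by GTF2 symbol, had a median of 15.4 RPKM over 16 genes, 10 of them above the all-gene median. The group also holds GTF2I, GTF2IRD1, GTF2IRD2 and GTF2IRD2B of the TFII-I family, and GTF2H2C, a copy of GTF2H2. Its lowest member was GTF2IRD2 at 0.986. TFIIF, which escorts the polymerase to the promoter, was high in both subunits, GTF2F1 at 44.5 RPKM and GTF2F2 at 22.3. TFIIA was represented by GTF2A2 at 32.1 and GTF2A1 at 12.9. TFIIB, which bridges TBP and the polymerase, was near the middle of all genes per length, with GTF2B at 7.94. The subunits of TFIIE, which recruits TFIIH, stood apart from each other, GTF2E2 at 20.3 and GTF2E1 at 2.33.

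TFIIH opens promoter DNA and phosphorylates the polymerase II tail. Of its core, GTF2H3 was at 37.5 RPKM, GTF2H1 at 23.8, GTF2H2 at 18.4 and GTF2H5 at 5.69. GTF2H4 was not among the genes of the table, and neither were GTF2A1L and TAF7L, relatives of GTF2A1 and TAF7. The 5 genes of its helicase, translocase and kinase modules, which the symbol rule does not take, were all above the all-gene median: ERCC2 was at 44.2 RPKM, ERCC3 at 29.4, CCNH at 22.9, CDK7 at 18.2 and MNAT1 at 12.3. The 9 TFIIH genes without the copy GTF2H2C spanned 7.77-fold.

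TFIID, which recognises the core promoter, was close to the median gene per length. Its 15 TAF genes had a median of 9.13 RPKM, 1.11 times the all-gene median, with 9 above. That closeness rests on the length scaling. Without it the group median was 0.73 log2 units above that of all genes, against 0.15 with it. TAF9 (66.8 RPKM), TAF13 (48.7), TAF7 (35.2), TAF6 (33.8), TAF9B (21.8) and TAF11 (16.6) were the highest with the main transcript. TAF2 (9.38), the scaffold TAF1 (9.13), TAF8 (8.43) and TAF4 (7.76) were in the middle. TAF3 (4.74), TAF5 (4.50), TAF10 (3.93), TAF4B (3.87) and TAF12 (3.07) were the lowest. TAF10 was scaled by a main transcript of 5312 bases that codes for 654, so its value per length rests on that annotation. The order at the top also rests on the length. With the longest transcript TAF7, TAF6 and TAF9B led at 5.14, 4.53 and 4.445 on the log2 scale. TAF9 was then at 4.07, TAF13 at 3.91 and TAF11 at 2.64. In CPM TAF6 was the highest at 81.9, and TAF1 at 69.4 was above TAF13 at 39.7 and TAF11 at 30.6. TBP itself was at 13.1 RPKM and its relative TBPL1 at 2.56, a ratio of 5.12.

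TAF proteins outside TFIID spread widely. TAF15, an RNA-binding protein of the FET family, was at 146 RPKM and had the highest CPM of any member, 316. TAF5L and TAF6L, the versions used in SAGA-type acetyltransferase complexes, were at 12.05 and 8.64. TAF5L was 2.68 times TAF5, or 1.32 times with the authors' length, whereas TAF6 was 3.91 times TAF6L. The SL1 subunits of polymerase I were at 62.9 for TAF1D, 11.4 for TAF1B, 10.9 for TAF1C and 7.38 for TAF1A. UBTF and RRN3, the other polymerase I factors listed, were at 25.6 and 9.17.

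The polymerase III factors were uneven. All 7 genes of TFIIIA and TFIIIC were above the all-gene median, with a median of 14.9 RPKM. GTF3A, the 5S gene factor TFIIIA, was at 75.0, GTF3C6 at 49.3, GTF3C5 at 35.5, GTF3C1 at 14.9, GTF3C2 at 10.1, GTF3C3 at 9.9995 and GTF3C4 at 8.26. The 3 TFIIIB genes other than TBP were below the all-gene median per length, BRF1 at 7.204, BDP1 at 5.94 and BRF2 at 1.17. TBP, which takes part in this system too, was above it at 13.1 RPKM. Without length scaling BDP1 and BRF1 were above the all-gene median, at 6.03 and 4.73 log2 CPM against 4.58, and BRF2 was below it at 1.58. Beside the members, 19 partner genes of all 3 polymerases and of mitochondrial transcription were looked up. MAF1, the repressor of polymerase III, was the highest of them per length at 67.3 RPKM, and BRF2 was the lowest. Of these 19 genes, 13 were above the all-gene median per length. They were the 5 TFIIH genes, 3 mitochondrial genes, 2 polymerase I factors, MAF1 and 2 of the 5 genes of the SNAPc complex.

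Several members share stretches of 75 bases with near copies or other genes, and a single read from such a stretch cannot be assigned to 1 gene. Read pairs were not considered. Counted over every 75-base window of the main transcript, 27 members shared at least 1 window with another gene, 8 shared over 50%, and 52 shared none. How the authors' counting treated reads that fit several genes is not given in the sources used here. The closest coding windows that lie within 1 exon are shown for 3 of the pairs of relatives, all at the close end; capitals mark bases that differ.
POLR2J, chr7:102474461-102474535, minus strand: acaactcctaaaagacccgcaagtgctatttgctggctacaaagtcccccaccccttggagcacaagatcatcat
POLR2J2, chr7:102667190-102667264, minus strand: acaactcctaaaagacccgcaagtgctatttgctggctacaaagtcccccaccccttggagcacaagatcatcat
TAF9, chr5:69365528-69365602, minus strand: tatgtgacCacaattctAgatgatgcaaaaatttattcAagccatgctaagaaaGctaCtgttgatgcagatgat
TAF9B, chrX:78138022-78138096, minus strand: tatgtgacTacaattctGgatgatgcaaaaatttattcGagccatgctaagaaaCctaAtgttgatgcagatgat
POLR3G, chr5:90512053-90512127, plus strand: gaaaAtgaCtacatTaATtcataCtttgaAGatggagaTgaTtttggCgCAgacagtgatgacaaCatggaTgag
POLR3GL, chr1:145978361-145978435, plus strand: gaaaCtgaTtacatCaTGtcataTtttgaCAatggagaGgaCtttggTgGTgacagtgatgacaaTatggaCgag

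The pairs differed at 0, 5 and 15 bases. POLR2J2 shared 100% of its windows, the 2 entries named POLR2J3 shared 100% and 92.1%, and POLR2J 28.7%. POLR2J was at 54.6 RPKM, POLR2J2 at 10.6 and POLR2J3 at 8.23 and 5.90. A single read from a shared window could belong to any gene that shares it. GTF2H2 and GTF2H2C, which encode proteins identical at 99.2% of their residues, shared 89.3% and 60.1% and were at 18.4 and 3.36 RPKM. Their ratio was 5.49, or 1.68 with the authors' length. GTF2I, encoding TFII-I, shared 65.7%, and its pseudogene GTF2IP1 was listed at 173 CPM against 97.0 CPM for GTF2I. GTF2IRD2 and GTF2IRD2B shared 95.7% and 86.5% and were at 0.986 and 2.26 RPKM, against 8.97 for GTF2IRD1, which shared none.

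Other relatives were more distinct. TAF9 was 3.07 times TAF9B per length, but 1.496 times with the authors' length. TAF1 was 14.7 times TAF1L, whose protein matched it at 92.0% of its residues, with 4.93% and 6.04% of windows shared. TAF4 was 2.01 times TAF4B with the main transcript and level with it with the authors' length, where the difference was -0.02 log2 units.

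**Figure D4:**
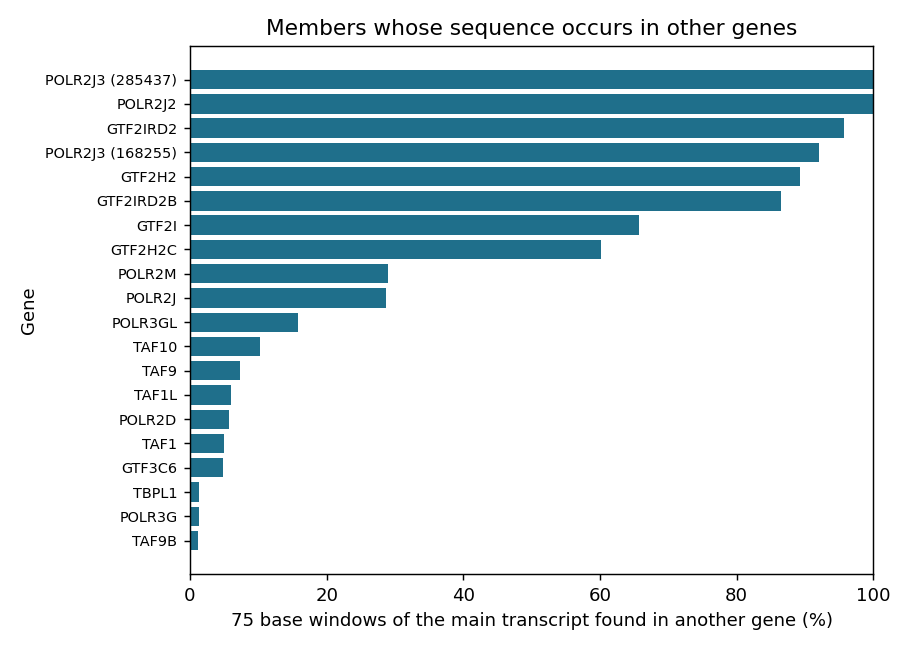
Share of 75-base windows of the main transcript that occur in another gene (x axis, percent), for the members (y axis) with at least 1%. The POLR2J, GTF2IRD2 and GTF2H2 copies fill the upper end, with POLR2J2 at 100% and GTF2H2 at 89.3%.

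The cell line's markers were mixed. VIM, CD44, AXL, CAV1, FN1 and MSN, which are high in this mesenchymal-like line, were all at or above the 97.4th percentile of genes per length, and ESR1 and PGR were not among the genes of the table. The epithelial keratin KRT8, listed here as a marker meant to be low, was at 310 RPKM and so went against that list, and ERBB2 was at 19.8. The others of that list were at 8.28 for EPCAM, 7.26 for GATA3, 2.66 for CDH1 and 1.44 for FOXA1, close to or below the all-gene median of 8.23.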

How the data were processed

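RNA-seq of 4 samples was used, 2 with 50 μM cordycepin and 2 with DMSO. The study's methods give mapping to GRCh38.p13 and counting with rsubread, whereas the submitters' processing notes name hg38, TopHat, HTSeq, DESeq and Cufflinks, with no versions. The authors deposited 1 table of 13957 genes with log2 CPM, gene length and their comparison of the groups (log fold change, F statistic, p-value and adjusted p-value); the comparison columns were not used. No column of values per sample was found (0), so the depth of each library is unknown. CPM summed to 1005541 over the genes. Levels were scaled by the length of the canonical GENCODE release 44 transcript, matched by gene identifier for 13922 genes (99.7%). Shared windows were exact matches of 75 bases, and proteins were compared with BLAST+ 2.17.0 and by pairwise alignment. Members and lists were chosen with earlier results of these data known. Genes named were the large and shared subunits, TBP, paralogue pairs, TFIIH, TFIID and the extremes of each group; others were named after their values were seen. The 15% mark for open points in the plot by complex was chosen after seeing the values. The arithmetic of the length scaling was tested on simulated data, which cannot show which transcript length is right. Of the 79 genes, 1 is not reported by name here.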

Additional observations from a re-analysis of the deposited data

How the results depend on the processing

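No paired analysis was possible because the table holds no values per sample, and no replicate could be left out for the same reason. Values are the group median less the all-gene median, in log2 units. The polymerase III value of 0.0086 turned to -0.0443 with the longest transcript, -0.11 against protein-coding genes and -0.0169 as a mean. Without length scaling, polymerase I went from 0.62 to 1.40, polymerase II from 2.10 to 1.10, the shared subunits from 2.55 to 1.01 and TFIIIC with TFIIIA from 0.86 to 1.57. As a mean, polymerase II gave 1.28 and the polymerase II general factors 0.28 in place of 0.91. The shared subunits gave 1.90 with the longest transcript and 1.51 with the length in the deposited table. The latter length, the omission of members that share a window, and the addition of CRCP or of the 3 polymerase I genes under older symbols were chosen after seeing the data. The other 41 values, the count of members included, kept their direction and moved by less than 1.5 times. Length is changed by construction in the length alternatives; the cause of the other changes was not tested. Of the 79 members, 72 were at or above the lower quartile of all genes in CPM.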
